A study of Rattus norvegicus with 28 samples.

Results

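Transcript levels of 4 histone deacetylases, Hdac2, Hdac3, Hdac4 and Hdac5, and of the DNA methyltransferase Dnmt3a were followed in the orbitofrontal cortex of Sprague Dawley rats that had self-administered methamphetamine (meth) or saline. The genes were chosen by identifier (ENSRNOG00000000604, ENSRNOG00000019618, ENSRNOG00000020372, ENSRNOG00000020905 and ENSRNOG00000026649, in the order above), and all 5 were among the 26405 identifiers counted and among the 15413 that passed the filter on low counts. The 16 poly(A) RNA-seq libraries fell into 4 groups of 4: meth at withdrawal day 35, saline at withdrawal day 35, meth at withdrawal day 2 and saline at withdrawal day 2. Rats of the saline groups went through the same intravenous self-administration procedure without the drug, and all were taken from the home cage. Each library held tissue punches pooled from 2 rats, so replicates are pools and not single animals. Withdrawal is given as short or long in the labels, and the number of days in the series' design text. Symbols are those given with the list of identifiers, since the files hold identifiers alone.

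Histone deacetylases take acetyl groups off lysines, chiefly on histone tails, and so favour closed chromatin and lower transcription. The class I enzymes HDAC2 and HDAC3 are nuclear and work inside corepressor complexes, whereas the class IIa enzymes HDAC4 and HDAC5 move between nucleus and cytoplasm as they are phosphorylated and bind transcription factors of the MEF2 family. DNMT3A places new methyl groups on cytosines, in neurons also outside CpG sites. In mice, HDAC3, HDAC5 and Dnmt3a of the nucleus accumbens have been studied for their part in cocaine reward. The study set the 2 withdrawal days beside each other because meth craving is known to grow over that time.

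No difference between meth and saline or between the days passed the test for any of the 5 genes. Over the 6 comparisons of the design, 0 of the 30 tests passed an adjusted p of 0.05 with edgeR, 0 had an unadjusted p under 0.05, and limma-voom called 0 of 30 and DESeq2 0 of the 29 for which it gave an adjusted p. The smallest unadjusted p was 0.070 and the smallest adjusted p 0.51 (edgeR quasi-likelihood test, Benjamini-Hochberg over 15413 genes). All 30 of the 95% intervals lay inside a 1.2-fold change in either direction, their outermost bounds being 0.863- and 1.16-fold. Each interval covers 1 test and is not widened for the number of tests. RNA of whole punches was measured, so fewer cells of a type and less RNA per cell cannot be told apart, and protein amount, location or activity of the enzymes was not measured.

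**Figure D1:**
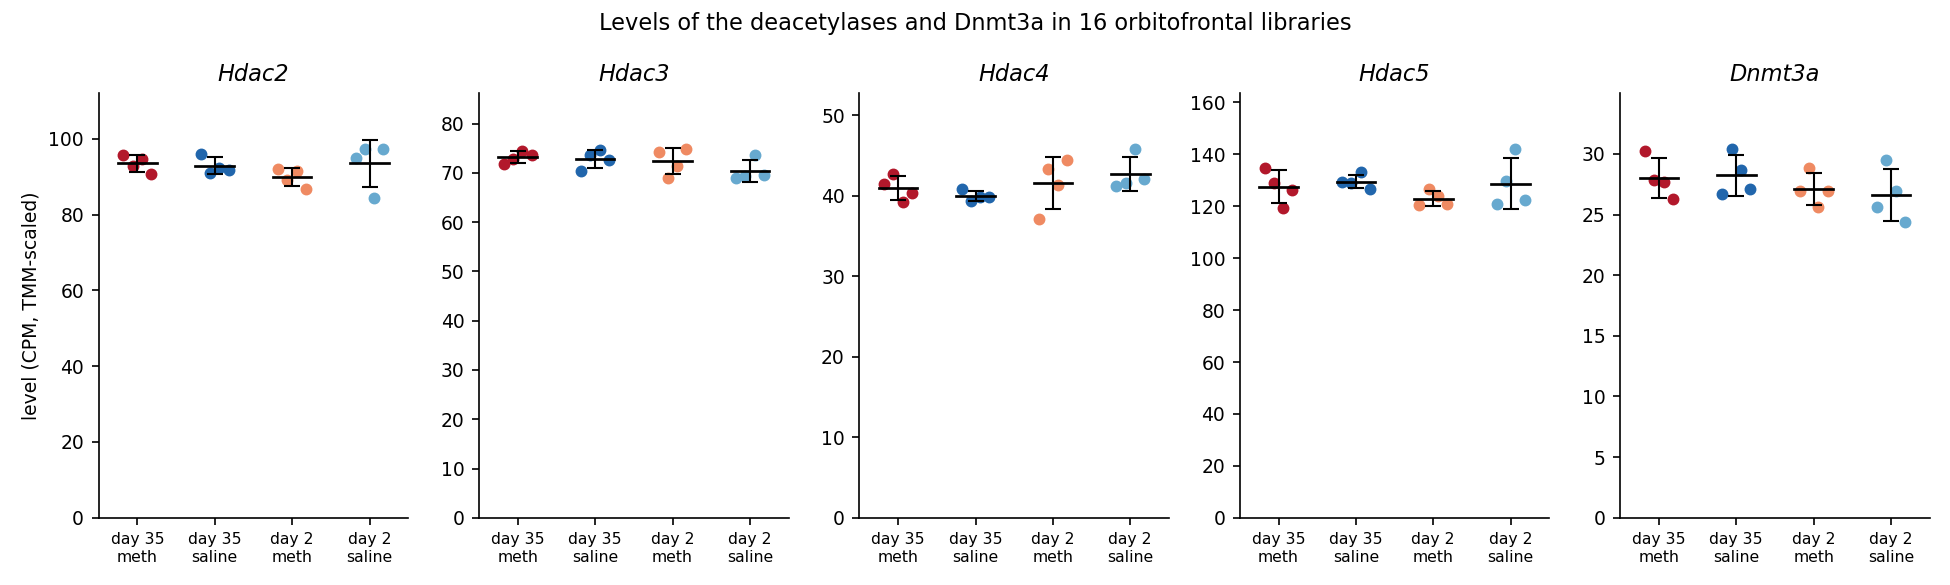
Level of each gene in CPM (counts per 1000000 gene counts, TMM-scaled; vertical axes start at 0) in each of the 16 libraries, by group; points are libraries, and lines with bars are the mean ± SD of 4. The highest group mean exceeded the lowest by 1.04-fold for Hdac2 and Hdac3, 1.05-fold for Hdac5, 1.06-fold for Dnmt3a and 1.07-fold for Hdac4.

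Gene counts per library ran from 20.3 to 48.5 M (M, 1000000 counts). By group the averages were 41.3 ± 3.16 M for meth and 37.2 ± 7.73 M for saline at day 35, and 33.6 ± 5.81 M for meth and 22.6 ± 1.56 M for saline at day 2 (SD, n = 4 each), so depth moves with the groups and its part in the results was not tested beyond scaling by library size. The 5 genes had between 523 (Dnmt3a) and 6236 (Hdac5) counts in a library. At these counts the counting error alone averaged 1.58% for Hdac5, 1.85% for Hdac2, 2.10% for Hdac3, 2.77% for Hdac4 and 3.41% for Dnmt3a. Day 2 saline replicate 15 had the lowest Hdac2 and the highest Hdac4 and Hdac5 of all 16 libraries and the highest Hdac3 of its group.

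Hdac2, a catalytic subunit of the Sin3, NuRD and CoREST repressor complexes and known in mice as a brake on memory formation, was expressed at 84.4 to 97.4 CPM. In day 35 meth libraries it stood at 95.8, 93.0, 94.6 and 90.6 CPM, and in day 35 saline libraries at 96.1, 91.1, 92.4 and 91.9 CPM. In day 2 meth libraries it stood at 92.1, 89.1, 91.5 and 86.9 CPM, and in day 2 saline libraries at 94.9, 97.3, 84.4 and 97.4 CPM. All 4 groups overlapped, and the day 2 saline libraries held both the highest and the lowest value. The order of the group means was day 35 meth (93.5 ± 2.25 CPM), day 2 saline (93.5 ± 6.19), day 35 saline (92.9 ± 2.22) and day 2 meth (89.9 ± 2.38, SD, n = 4 each), and neighbours in it differed by less than the larger of their SDs except in the last step, of 2.97 CPM, between groups that differ in both drug and day and were not compared. At day 2 the log2 fold change of meth over saline was -0.057 (SE 0.040, 95% interval of the fold 0.907 to 1.02, edgeR adjusted p = 0.67). Leaving out 1 library at a time, it ran from -0.11 without day 2 saline replicate 15 (edgeR adjusted p = 0.23) to -0.040 without day 2 saline replicate 14 (over all alternatives the adjusted p lay between 0.23 and 0.91).

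Hdac3, the catalytic subunit of the NCoR and SMRT corepressor complexes, was the steadiest of the 5, with a highest library 1.09 times its lowest. Its levels were 71.8, 72.8, 74.5 and 73.6 CPM in day 35 meth libraries, against 70.3, 73.6, 74.6 and 72.7 CPM in day 35 saline libraries. They were 74.2, 69.0, 71.5 and 74.9 CPM in day 2 meth libraries, against 69.0, 69.4, 73.6 and 69.6 CPM in day 2 saline libraries. The ranges overlapped between every pair of groups, and 3 of the 4 day 2 saline libraries lay within 1 CPM of one another at the low end. Group means ran from 73.2 ± 1.18 CPM in day 35 meth through 72.8 ± 1.85 in day 35 saline and 72.4 ± 2.69 in day 2 meth to 70.4 ± 2.17 in day 2 saline libraries (SD, n = 4 each), each step being smaller than the larger SD of its neighbours. Meth over saline gave a log2 fold change of 0.0083 at day 35 (SE 0.032, edgeR adjusted p = 0.99) and 0.040 at day 2 (SE 0.033, edgeR adjusted p = 0.72). Of all genes tested, 90.5% had a larger change than Hdac3 between meth and saline at day 35.

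Hdac4, a class IIa enzyme that in neurons is held in the cytoplasm by synaptic activity, gave the only compared pair of groups that did not overlap. It was at 41.4, 42.7, 39.2 and 40.4 CPM in day 35 meth libraries and at 40.9, 39.3, 39.9 and 39.8 CPM in day 35 saline libraries. It was at 37.0, 43.3, 41.4 and 44.4 CPM in day 2 meth libraries and at 41.2, 41.6, 45.8 and 42.1 CPM in day 2 saline libraries. All 4 day 35 saline libraries were below all 4 day 2 saline libraries, while the day 2 meth libraries overlapped both. In saline rats the mean was 40.0 ± 0.648 CPM at day 35 and 42.7 ± 2.11 CPM at day 2 (SD, n = 4 each). The log2 fold change of day 35 over day 2 was -0.095 (SE 0.049, fold 0.936 with a 95% interval of 0.871 to 1.01, edgeR unadjusted p = 0.070, adjusted p = 0.62). Leaving out 1 library at a time, it ran from -0.11 without day 2 saline replicate 13 to -0.061 without day 2 saline replicate 15, the highest library. In meth rats the change between the days was -0.024 (SE 0.048, edgeR adjusted p = 0.86), and its sign turned without day 2 meth replicate 4 (0.013). The difference between these changes, which equals the change of the meth effect from day to day, was 0.071 in log2 units (SE 0.069, edgeR adjusted p = 0.80). In descending order the means were day 2 saline, day 2 meth (41.5 ± 3.23 CPM), day 35 meth (40.9 ± 1.47) and day 35 saline, and each step was smaller than the larger SD of its neighbours.

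Hdac5, the second class IIa enzyme, was at 135, 129, 119 and 126 CPM in day 35 meth libraries, against 129, 129, 133 and 127 CPM in day 35 saline libraries. In day 2 libraries it was at 121, 127, 124 and 121 CPM after meth, against 121, 129.8, 142 and 122 CPM after saline. The 142 CPM of day 2 saline replicate 15 was the highest value, and of the other 3 libraries of that group 2 lay inside the range of day 2 meth and 1 above it. The order of group means was day 35 saline (129.5 ± 2.68 CPM), day 2 saline (129 ± 9.74), day 35 meth (127 ± 6.38) and day 2 meth (123 ± 2.83, SD, n = 4 each), and each step was smaller than the larger SD of its neighbours. The log2 fold change of Hdac5, meth over saline averaged over both days, was -0.045 (SE 0.031, 95% interval of the fold 0.926 to 1.01, edgeR adjusted p = 0.82), which ran from -0.062 without day 2 saline replicate 13 to -0.022 without day 2 saline replicate 15. At day 2 alone it was -0.067 (SE 0.045, edgeR adjusted p = 0.65), and it ran from -0.10 to -0.021 without these same libraries.

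Dnmt3a, which carries out de novo DNA methylation, had the fewest counts of the 5 and the widest relative spread. Its levels were 30.2, 27.8, 27.7 and 26.3 CPM in day 35 meth libraries, against 26.7, 30.4, 28.7 and 27.1 CPM in day 35 saline libraries. They were 26.9, 28.9, 25.6 and 27.0 CPM in day 2 meth libraries, against 25.7, 29.5, 26.9 and 24.4 CPM in day 2 saline libraries. Every group overlapped every other. The means were 28.2 ± 1.68 CPM in day 35 saline, 28.0 ± 1.63 in day 35 meth, 27.1 ± 1.34 in day 2 meth and 26.6 ± 2.16 in day 2 saline libraries (SD, n = 4 each), and no step exceeded the larger SD of its neighbours. Meth over saline gave -0.010 at day 35 (SE 0.058, edgeR adjusted p = 0.99) and 0.025 at day 2 (SE 0.061, edgeR adjusted p = 0.92) on the log2 scale. The change of day 35 over day 2 was 0.048 in meth rats (SE 0.059, edgeR adjusted p = 0.74) and 0.083 in saline rats (SE 0.061, edgeR adjusted p = 0.74), passing the test in neither. Leaving out 1 library at a time, the value in meth rats ran from 0.0096 without day 35 meth replicate 5 to 0.084 without day 2 meth replicate 2. In saline rats it ran from 0.041 without day 2 saline replicate 16 to 0.14 without day 2 saline replicate 14. The RefSeq gene table holds 3 Dnmt3a pseudogenes and 1 pseudogene of Hdac2, Hdac3, Hdac4 or Hdac5. Reads with several alignments went uncounted, so reads from near-identical stretches would be missing from these levels.

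**Figure D2:**
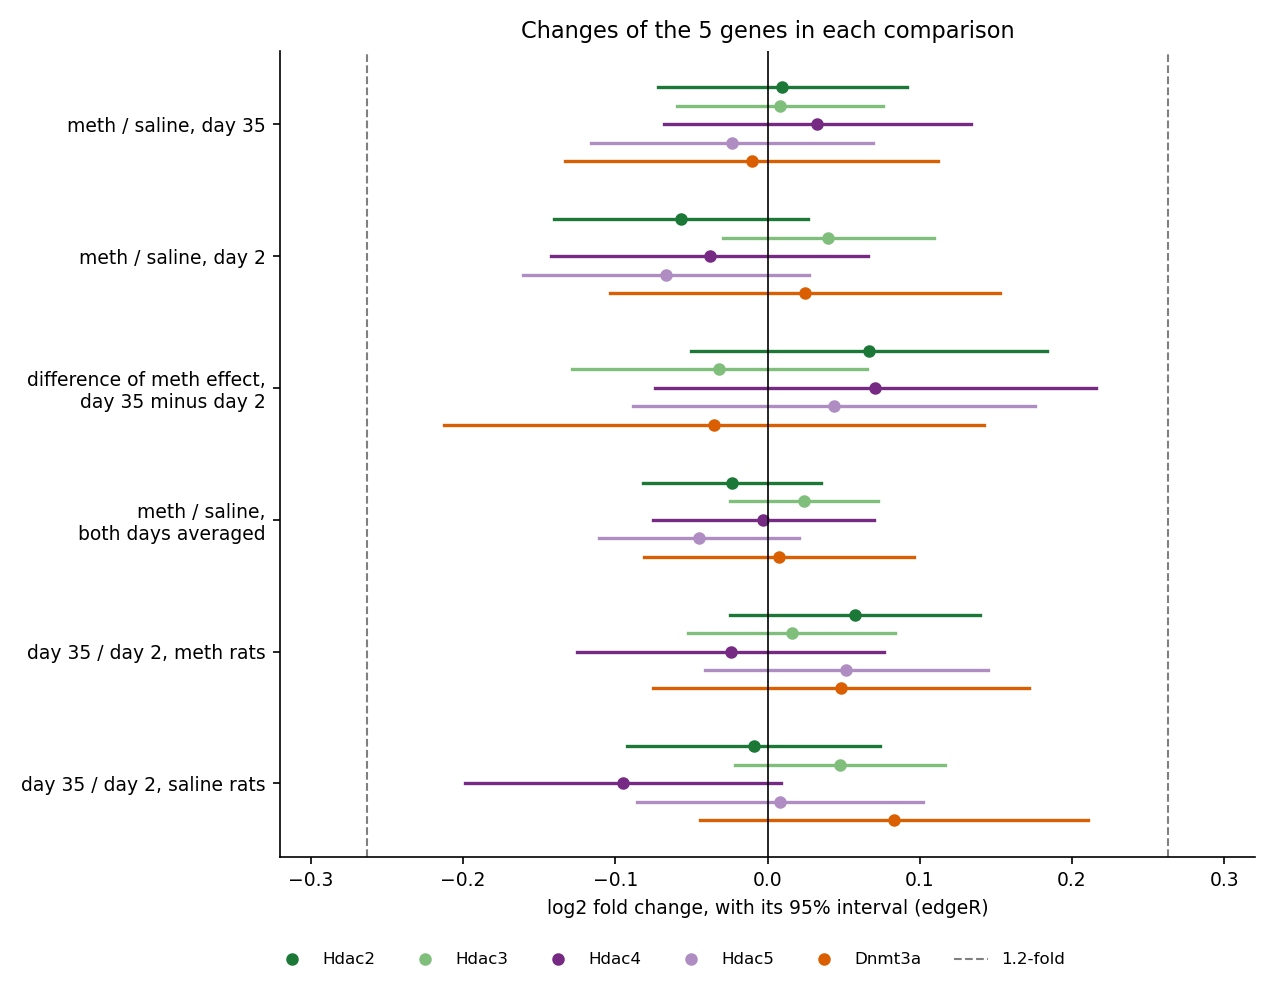
Log2 fold changes (points) and their 95% intervals (lines) of the 5 genes in the 6 comparisons; the horizontal axis is the log2 fold change, positive where the first group named is higher, and dashed lines mark a 1.2-fold change. All 30 intervals stay inside the dashed lines, and all include 0.

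The same comparisons over all genes give the background. Between meth and saline at day 35, 0% of 15413 genes passed the adjusted p with edgeR, and at day 2 0.11% passed. At day 35 limma-voom called 0 genes and DESeq2 5, and 902 genes had an unadjusted edgeR p under 0.05. The meth effect at day 35 minus that at day 2 passed for 0.136% (21 genes, or 4 with lane as a replicate block), and the meth effect averaged over both days for 0.013%. Day 35 against day 2 passed for 1.83% of genes in meth rats and for 0% in saline rats (edgeR 0, limma-voom 0, DESeq2 37; 1338 genes had an unadjusted p under 0.05). At these shares, a call among 5 genes would be rare in any comparison, so 0 of 5 called is near the background everywhere and sets the 5 genes apart in no comparison. The median size of the log2 fold change was smaller over the 5 genes than over all genes in each comparison. It was 0.010 over the 5 against 0.050 over all genes for meth and saline at day 35, and 0.040 against 0.063 at day 2. It was 0.048 against 0.069 between the days in meth rats and 0.048 against 0.059 in saline rats. The 5 drew more counts than most genes, as 10.4 to 40.5% of tested genes had a higher CPM. Fold changes of genes with more counts carry less counting error, but whether this bears on the smaller medians was not tested.

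Groups without overlap were counted in the same way. The libraries of the compared groups did not overlap for 0 of the 5 genes between meth and saline at day 35 (3.46% of all genes), at day 2 (5.45%), and between the days in meth rats (11.4%). Between the days in saline rats this held for 1 of 5, Hdac4, against 3.86% of all genes. Over all 20 comparisons of 2 groups for a gene, 1 was without overlap, which is near the shares over all genes (3.46 to 11.4%). The separation therefore does not set Hdac4 apart. It came without passing the test, and 32.6% of tested genes changed by more than Hdac4 between the days in saline rats.

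**Figure D3:**
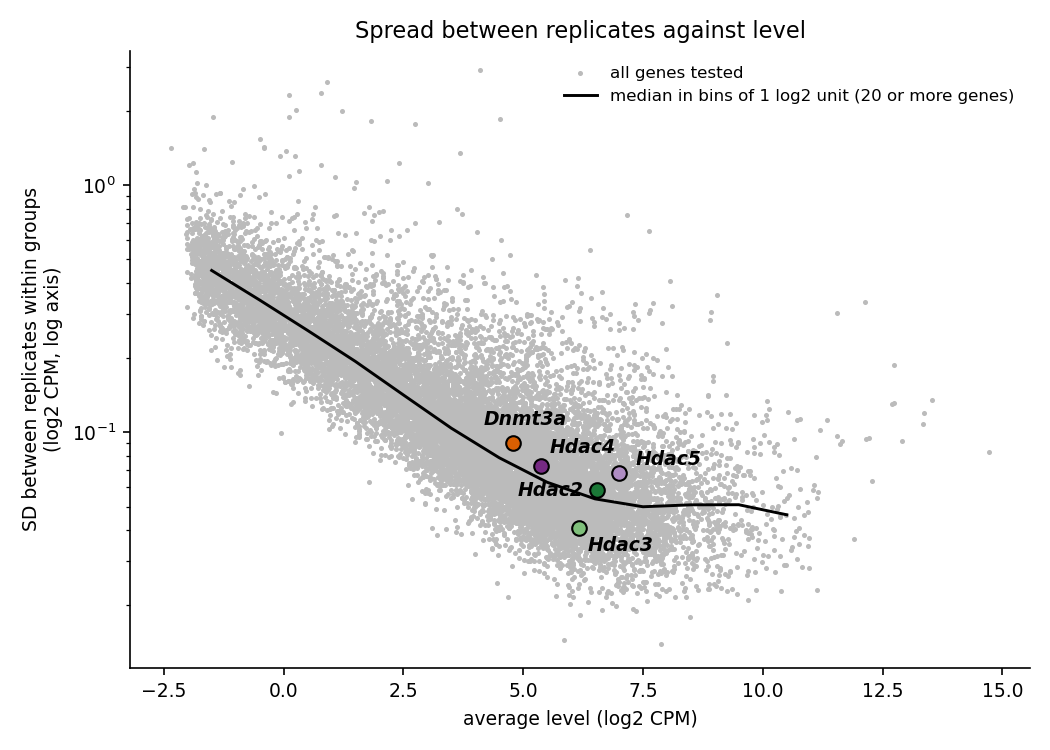
Pooled SD between replicates within the 4 groups (log2 CPM, log axis) against the average level (log2 CPM) for all 15413 genes tested (grey) and the 5 genes (coloured); the black line is the median in bins of 1 log2 unit that hold 20 or more genes. Hdac3 lies below the line at 0.041 and the other 4 lie on or above it, between 0.058 and 0.090.

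Set beside genes of like level, the spread between replicate pools was low only for Hdac3 among the 5 genes. The pooled within-group SD was 0.041 for Hdac3, 0.058 for Hdac2, 0.068 for Hdac5, 0.073 for Hdac4 and 0.090 for Dnmt3a on the log2 scale. Among the 1000 genes nearest in level, 18.3% had a smaller SD than Hdac3, 57.1% than Hdac2, 62.3% than Hdac4, 69.3% than Dnmt3a and 73.0% than Hdac5. Hdac3 was thus steadier than most genes of its level and the other 4 were ordinary or slightly more variable. The biological coefficient of variation estimated by edgeR ran from 3.33% (Hdac3) to 5.56% (Dnmt3a).

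Whether the 5 genes moved together from library to library was examined for the 10 pairs over the 16 libraries, with permutation tests of 100000 draws and Benjamini-Hochberg adjustment over the pairs. None of the 10 passed, in the log2 levels or in the deviations from the group means. The class IIa pair Hdac4 and Hdac5 had a Pearson r of 0.40 (two-sided permutation p = 0.12, adjusted p = 0.31) and a Spearman rho of 0.31 (permutation p = 0.24, adjusted p = 0.80). Within groups the deviations of this pair gave r = 0.56 (permutation p = 0.023, adjusted p = 0.15) and rho = 0.67 (permutation p = 0.011, adjusted p = 0.11). Leaving out the 2 libraries farthest from the median of Hdac4, day 2 meth replicate 1 and day 2 saline replicate 15, changed the pooled r to -0.16. The sign of the pooled r thus depended on those libraries. Within groups the r of Hdac4 and Hdac5 was 0.36 without day 2 saline replicate 15. Hdac2 and Hdac3 gave r = -0.50 (permutation p = 0.051, adjusted p = 0.27) and rho = -0.46 (permutation p = 0.080, adjusted p = 0.40). Without the 2 libraries farthest from the median of Hdac2, day 2 saline replicate 15 and day 2 meth replicate 4, r was -0.38. Within groups the deviations of this pair gave r = -0.60 (permutation p = 0.042, adjusted p = 0.15), and -0.34 without day 2 saline replicate 15. Their rho was -0.55 (permutation p = 0.056, adjusted p = 0.19). Hdac2 and Hdac4 gave r = -0.45 (permutation p = 0.080, adjusted p = 0.27), rho = -0.18 (permutation p = 0.50, adjusted p = 0.90) and r = 0.16 without the same 2 libraries, a change of sign. Within groups they gave r = -0.56 (permutation p = 0.045, adjusted p = 0.15), and -0.34 without day 2 saline replicate 15. Their rho within groups was -0.43 (permutation p = 0.15, adjusted p = 0.37). Hdac5 and Dnmt3a gave r = 0.45 (permutation p = 0.080, adjusted p = 0.27) and rho = 0.47 (permutation p = 0.067, adjusted p = 0.40). Without the 2 libraries farthest from the median of Hdac5, day 2 saline replicate 15 and day 35 meth replicate 5, r was 0.56. Within groups this pair gave r = 0.47 (permutation p = 0.17, adjusted p = 0.41), and 0.60 without day 2 saline replicate 15. Its rho within groups was 0.59 (permutation p = 0.047, adjusted p = 0.19). The libraries share scaling and tissue mix, which touch all genes of a library at once.

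**Figure D4:**
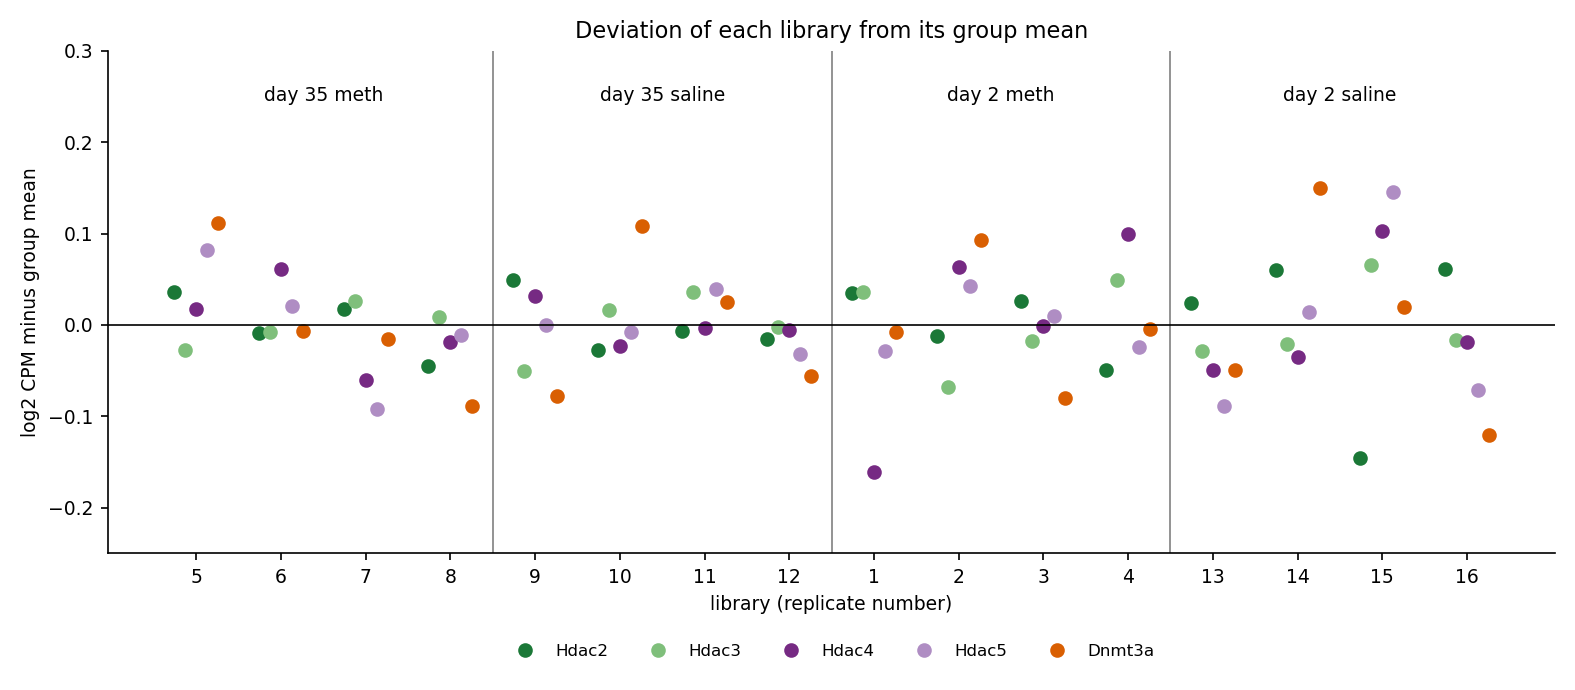
Deviation of each library from the mean of its group (log2 CPM) for the 5 genes; the horizontal axis lists the 16 libraries by replicate number, in their groups. In day 2 saline replicate 15, Hdac2 is 0.15 below its group mean while Hdac5 is 0.15, Hdac4 0.10 and Hdac3 0.065 above; in day 2 meth replicate 1, Hdac4 is 0.16 below.

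The promoter windows of the paralogs Hdac4 and Hdac5 are shown because this pair had the largest positive r within groups over all 16 libraries. That r was short of the threshold and, without day 2 saline replicate 15, below that of Hdac5 and Dnmt3a. The windows run from 250 bases before to 50 after the annotated start (RefSeq, build GRCr8, 5′ to 3′ on the minus strand, at chr9:100197588-100197887 for Hdac4 and chr10:87688005-87688304 for Hdac5). Capitals mark matches on either strand to the letters of the GC box (GGGCGG), the CCAAT box (CCAAT), the core of the cyclic AMP response element (TGACG), the E box (CACGTG) and the MEF2 core (CTA and TAG with 4 bases of any kind between them).
Hdac4: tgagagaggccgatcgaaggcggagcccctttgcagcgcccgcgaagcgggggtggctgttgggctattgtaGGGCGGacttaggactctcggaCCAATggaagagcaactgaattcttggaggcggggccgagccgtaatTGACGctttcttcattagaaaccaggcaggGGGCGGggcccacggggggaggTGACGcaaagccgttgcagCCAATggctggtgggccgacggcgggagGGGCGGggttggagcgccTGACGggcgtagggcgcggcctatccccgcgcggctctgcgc
Hdac5: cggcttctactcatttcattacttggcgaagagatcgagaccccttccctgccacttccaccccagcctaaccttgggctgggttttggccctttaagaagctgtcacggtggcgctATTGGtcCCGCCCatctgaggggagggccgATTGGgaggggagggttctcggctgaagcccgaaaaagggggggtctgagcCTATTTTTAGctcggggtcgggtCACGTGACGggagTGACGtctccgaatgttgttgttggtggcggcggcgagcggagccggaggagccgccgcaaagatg
The Hdac4 window held 3 GC boxes, 2 CCAAT boxes and 3 response element cores, and no match to the E box or MEF2 letters. The Hdac5 window held 1 GC box, 2 CCAAT boxes and 2 response element cores. It also held the MEF2 letters at -52 to -43 and an E box at -29 to -24, with the annotated start counted as 0. The E box overlapped the first of these cores. Among 33469 rat windows of this length, the GC box was found in 33.1%, the CCAAT box in 37.5%, the response element core in 21.2%, the E box in 6.42% and the MEF2 letters in 3.84%. The windows of all 5 genes held more CpGs than the median window, which had 7. They held 30 for Hdac4, 22 for Hdac5, 33 for Hdac2, 26 for Hdac3 and 21 for Dnmt3a. Of the rat windows, 77.4% had fewer CpGs than that of Dnmt3a, 79% than Hdac5, 84.8% than Hdac3, 89.7% than Hdac4 and 92.5% than Hdac2. A match is a description of letters, and binding was not measured.

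The genes whose levels most resembled those of the 5 over the 16 libraries are known by identifier alone. The highest Pearson r of log2 CPM with any of the other 15408 genes lay between 0.81 and 0.91 over the 5 genes, and the lowest between -0.86 and -0.82. Only the highest and the lowest gene for each of the 5 were kept. Among these highest values, the largest were 0.91 for ENSRNOG00000006137 with Dnmt3a and 0.83 for ENSRNOG00000018241 with Hdac4. Among the lowest values, the most negative were -0.86 for ENSRNOG00000022652 with Hdac3 and -0.86 for ENSRNOG00000017571 with Dnmt3a. These are the extremes of many comparisons, given as a description. The other deacetylases, sirtuins, corepressor subunits, acetyltransferases and DNA methylation genes (86 symbols listed), and markers of cortical neurons and glia, could not be tied to identifiers with the gene table at hand and are not analysed here, so the labelled tissue was not checked against its markers.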

How the data were processed

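Per the labels, poly(A) RNA was made into TruSeq libraries for an Illumina HiSeq machine. The submitters' processing notes name TopHat, HTSeq and limma with genome build rn4. No source used here gives versions, annotation release or strand setting. The authors deposited raw counts per Ensembl identifier. The 5 HTSeq summary rows (31.1 to 32.6% of reads) were left out. The 12 central amygdala samples were not analysed here.

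Genes were filtered with filterByExpr, scaled with TMM (factors 0.985 to 1.02), and fitted as 4 group means over 16 libraries with glmQLFit (robust) and glmQLFTest (edgeR 4.0.16, R 4.3.3), adjusted by Benjamini-Hochberg over 15413 genes. Standard errors are the fold change over the square root of F. The code was tested on simulated data. The members and lists were chosen with earlier results of these data known. The gene with the highest and the gene with the lowest correlation were found for each member. Named genes were the members and, by identifier, the 2 most extreme of each kind. Of 26405 identifiers, 0 matched the gene table, so listed symbols were not used.

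Libraries are paired by the lane in their labels, with 1 library per group in each; their deviations correlated by 0.012 on average over 24 same-lane pairs (-0.17 to 0.16). Each group carried 1 index, so index and group cannot be told apart. No 2 libraries of a group agreed within sampling noise (chi-square 5.19 to 17.0 times its degrees of freedom over 24 pairs). Alternatives were other size factors, no filter, DESeq2 1.42.0, limma-voom 3.58.1, a lane block, fits of the compared groups, and leaving out libraries.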

Additional observations from a re-analysis of the deposited data

Results flagged for a closer look

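Hdac3 in day 2 saline replicate 15 stood at 73.6 CPM, far from the 69.0 to 69.6 CPM of the other 3 libraries of its group. It was the only 1 of 20 sets of 4 values (5 genes in 4 groups) in which a library stood apart so far, where chance gives about 1 in 20. The same library had the lowest Hdac2 (84.4 CPM) and the highest Hdac4 (45.8 CPM) and Hdac5 (142 CPM) of the 16.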

How the results depend on the processing

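Of 680 fold changes of the 5 genes under 23 alternatives, 647 kept their direction and 33 turned sign, all from reported values of 0.044 or less in size on the log2 scale; none was called (smallest adjusted p 0.23). The count of these genes called was 0 in every comparison and alternative run. Without the 2 libraries with the most extreme first component scores (day 2 meth replicate 4 and day 2 saline replicate 13, chosen after seeing the data), the sign turned for Dnmt3a averaged over both days (-0.00080), Hdac4 between days in meth rats (0.013) and Hdac5 between days in saline rats (-0.020). Leaving out 1 library, fold changes that turned sign ranged as follows. At day 2, meth over saline ran from -0.075 to 0.0033 for Hdac4 and from -0.021 to 0.074 for Dnmt3a. At day 35 it ran from -0.0022 to 0.028 for Hdac2, -0.0081 to 0.021 for Hdac3, -0.051 to 0.0071 for Hdac5 and -0.049 to 0.026 for Dnmt3a. Averaged over days it ran from -0.021 to 0.018 for Hdac4 and -0.016 to 0.032 for Dnmt3a. The difference of effects ran from -0.0021 to 0.078 for Hdac5 and -0.084 to 0.011 for Dnmt3a. Between days it ran from -0.0038 to 0.037 for Hdac3 and -0.067 to 0.013 for Hdac4 in meth rats, and from -0.058 to 0.010 for Hdac2 and -0.023 to 0.057 for Hdac5 in saline rats.

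Counts over all genes moved more. DESeq2 called 115 genes for meth and saline at day 2 (edgeR 17), 5 at day 35 (0), 83 for the difference of effects (21), 29 averaged over days (2), and 554 in meth (282) and 37 in saline rats (0) between days. At day 2 DESeq2 gave an adjusted p for 5552 genes, against 15413 for edgeR. The difference of effects gave 8 genes under limma-voom, 8 when size factors were median ratios and 4 with lane as a replicate block, which changed no other call or count by over 1.5 times. Without the 2 libraries named above the counts were 4 at day 2, 0 for the difference, 0 averaged over days and 119 between days in meth rats. Leaving out 1 library gave 6 to 21 genes at day 2, 0 to 1 at day 35, 0 to 17 for the difference, 1 to 4 averaged over days, and 104 to 305 in meth and 0 to 2 in saline rats between days. The cause of these moves was not tested. Counts were lowest for Dnmt3a, with 523 in the shallowest library, and the part of depth in its results was not tested.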
